A study of Mus musculus with 12 samples.

Results

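Genes that are used to mark the surface layer of the ovary were followed in every sample. They were Cdh1, Krt7, Krt8, Krt18, Krt19, Upk3b, Upk1b and Msln. They were taken by name, and all 8 members were among the 30119 gene names on the array and were tested. Ovaries came from female C57BL/6J mice of 2 months, 4 animals in each of 3 diet groups. Control mice (C1 to C4) ate a normal diet, early-life mice (E1 to E4) ate food deficient in vitamin D (VD) in early life only, and peripubertal mice (P1 to P4) ate it around puberty only. Each array carried 2 samples of 1 group, the odd number in Cy3 and the even number in Cy5. All peripubertal arrays were on a slide of their own, apart from the slide that held the remaining arrays. An effect of that slide and one of the peripubertal diet cannot be told apart.

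The ovarian surface epithelium is a single sheet of cells that is continuous with the mesothelium of the body cavity. Like mesothelium it makes the simple-epithelium keratins, mesothelin and uroplakins, while E-cadherin is patchy in it. The oviduct lies against the ovary, and its lining is a columnar epithelium of secretory and ciliated cells that is rich in E-cadherin and in the same keratins. Ovgp1, oviductin, is a glycoprotein secreted by the oviduct lining, and each gene was therefore set against it. In whole tissue, more cells of a type and more RNA per cell cannot be told apart.

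Keratin genes resemble each other, so the probes decide which keratin is read. Probes of 3 keratins are shown, each 60 bases long:
Krt7 probe: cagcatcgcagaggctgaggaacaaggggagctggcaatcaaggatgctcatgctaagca
Krt8 second probe: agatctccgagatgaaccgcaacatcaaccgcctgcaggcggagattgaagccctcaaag
Krt19 probe: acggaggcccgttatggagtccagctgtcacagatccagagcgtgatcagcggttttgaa
The longest run of letters that the Krt7 probe shared with a probe of another keratin was 10 bases, with Krt39. For the Krt19 probe it was 9 bases, and for this Krt8 probe 8 bases. Krt8 values below come from another, brighter probe unless stated. For that probe and for the Krt18 probe, neither shown, it was 9 bases. No other probe on the array had the same letters as any of the member probes. Probes were compared with other probes only and not with whole transcripts. Short runs therefore do not show that a probe reads its own keratin alone. On mm9 the Krt7 probe lay on chromosome 15 from 101253718 to 101253777, the second Krt8 probe on chromosome 15 from 101828827 to 101828886, and the Krt19 probe on chromosome 11 from 100002392 to 100002451. No gene annotation of mm9 was used here.

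Promoters of 3 keratins, Krt7, Krt8 and Krt18, and of Ovgp1 are shown, since the keratins are set against Ovgp1 below. Cdh1, Krt19, Upk1b and Msln had no entry in the table used here. Each holds the 250 bases before the gene's start in RefSeq, build GRCm38.p6, 5′ to 3′ on the gene's own strand. Capitals mark CAGGTG (the E-box bound by Snail and Zeb repressors) and GGGCGG (the GC box), on either strand. Krt7 is at chr15:101412153-101412402 (plus strand), Krt8 at chr15:102004343-102004592 (minus), Krt18 at chr15:102027966-102028215 (plus) and Ovgp1 at chr3:105973552-105973801 (plus):
Krt7: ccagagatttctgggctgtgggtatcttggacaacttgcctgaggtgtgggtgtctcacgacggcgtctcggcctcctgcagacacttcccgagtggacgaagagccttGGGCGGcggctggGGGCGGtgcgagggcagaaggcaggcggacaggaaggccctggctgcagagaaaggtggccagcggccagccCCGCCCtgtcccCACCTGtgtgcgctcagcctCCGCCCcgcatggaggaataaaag
Krt8: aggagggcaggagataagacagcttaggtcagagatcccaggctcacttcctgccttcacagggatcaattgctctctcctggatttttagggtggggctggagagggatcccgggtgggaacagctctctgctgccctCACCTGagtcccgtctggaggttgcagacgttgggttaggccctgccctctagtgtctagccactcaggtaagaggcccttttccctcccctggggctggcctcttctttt
Krt18: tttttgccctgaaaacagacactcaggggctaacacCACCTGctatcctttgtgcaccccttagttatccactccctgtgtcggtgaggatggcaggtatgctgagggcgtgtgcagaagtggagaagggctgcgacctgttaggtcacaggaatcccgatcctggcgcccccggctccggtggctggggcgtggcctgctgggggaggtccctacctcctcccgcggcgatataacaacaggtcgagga
Ovgp1: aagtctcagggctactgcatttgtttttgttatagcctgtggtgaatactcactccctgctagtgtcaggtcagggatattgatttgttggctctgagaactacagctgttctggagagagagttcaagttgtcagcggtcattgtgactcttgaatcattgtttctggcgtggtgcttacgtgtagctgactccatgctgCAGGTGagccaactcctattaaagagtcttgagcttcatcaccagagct
Each of these 4 promoters held 1 CAGGTG, a motif found in 17.2% of 32851 promoters of the same length. The Krt7 promoter held 4 GC boxes. At least 1 GC box was in 32.7% of promoters, and at least 3 were in 8.5%. A search for TATAAA and CCAAT, present in 12.4% and 33.8% of promoters, found no match in the 4 windows. The promoter of Upk3b held none of the 4 motifs. A match is a description of letters and not of binding.

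Probe signal was 6.96 to 9.62 times the background in a channel. Every member was well above background in all 12 samples, as was Ovgp1. All 8 granulosa cell genes and all 8 oocyte genes fixed as lists passed the filter and were tested, as were 18557 of the 30119 gene names. All 6 fat cell genes passed too, so passing does not by itself identify the tissue. The deposited value table, which gives the authors' own log2 values, contradicts the scanner files on which arrays are control. Its 4 control columns followed early-life channels and its 4 early-life columns followed control channels (r at least 0.999767). Which of these 2 groups a sample belongs to is therefore not settled, and this touches all 3 comparisons. With the names exchanged, early life versus control changes sign, and each of the other comparisons takes the size that the other one has here. Below, samples bear the names of their scanner files. Values with the names exchanged are given for the members and for some other genes and lists. Where they are not given, the rule above holds all the same.

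Cdh1, E-cadherin, is the adhesion molecule that joins epithelial cells. Its log2 intensity was 10.52, 8.76, 8.58 and 10.39 in C1 to C4, and 11.93, 9.13, 11.16 and 12.15 in E1 to E4. It was 8.55, 8.57, 8.86 and 9.18 in P1 to P4. E1, E3 and E4 lay above all other samples, C1 and C4 came next, and E2 lay within the range of the peripubertal samples. From the lowest sample to the highest, Cdh1 spanned 12.2-fold. Its probe was printed 10 times on each array, and the SD between these spots had a median of 0.244 log2 units against 1.35 between the 12 samples. For Upk1b, the other member printed 10 times, these values were 0.189 and 0.439. Spot SDs hold no error of the RNA preparation or labelling.

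Krt8 and Krt18 are partners that form the first keratin filaments of simple epithelia, and their genes are neighbours. Krt8 stood at 14.10, 12.87, 13.48 and 13.85 in C1 to C4 and at 14.92, 12.93, 14.11 and 15.17 in E1 to E4. In P1 to P4 it stood at 12.48, 12.57, 12.53 and 12.93. The highest peripubertal sample lay just under the lowest early-life sample, so these groups did not overlap, which was also so (early life higher) for 6.54% of genes. With the names exchanged, the groups so compared overlap, since C2 lies under P4.

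Krt18 was at 13.88, 11.74, 12.28 and 13.63 in the control samples. It was at 14.995, 12.12 and 15.23 in E1, E2 and E4. The E3 spot was an outlier spot, left out of the fit, with a value of 13.97. Krt18 was at 12.03, 12.09, 11.91 and 12.66 in P1 to P4. As with Cdh1, C2, C3 and E2 lay in or near the peripubertal range and the others above it. Krt18 spanned 11.2-fold and Krt8 6.46-fold across the samples.

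Krt19 and Krt7 are keratins of ducts and lining epithelia. Krt19 was at 13.88, 12.15, 12.74 and 13.39 in C1 to C4, at 15.32, 12.17, 14.18 and 15.50 in E1 to E4, and at 12.51, 12.11, 12.12 and 12.96 in P1 to P4. Krt7 was at 10.58, 8.84, 10.03 and 10.23, at 11.26, 8.90, 10.95 and 11.61, and at 9.997, 9.24, 9.75 and 10.22 in the same order. Both genes were highest in E4, and Krt7 was lowest in C2 and E2 rather than in the peripubertal samples. Krt19 spanned 10.4-fold and Krt7 6.83-fold.

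Upk3b and Upk1b belong to the uroplakins, membrane proteins of the bladder lining that mesothelium also makes, and Msln encodes mesothelin, a surface protein of mesothelium. Upk3b was at 11.32, 11.20, 11.51 and 11.86 in C1 to C4, at 12.17, 11.18, 12.04 and 12.06 in E1 to E4, and at 11.09, 10.92, 11.03 and 11.97 in P1 to P4. Upk1b was at 9.92, 9.51, 10.28 and 10.48, at 10.20, 9.55, 10.45 and 10.09, and at 10.39, 9.88, 10.25 and 11.12. Msln was at 12.85, 12.30, 12.59 and 12.93, at 13.51, 11.96, 13.04 and 13.01, and at 12.72, 12.32, 12.29 and 13.15. The 3 groups overlapped for each of these 3 genes. They spanned 2.38-fold, 3.06-fold and 2.91-fold, less than any keratin or Cdh1, and P4 was the highest peripubertal sample for all 3.

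**Figure D1:**
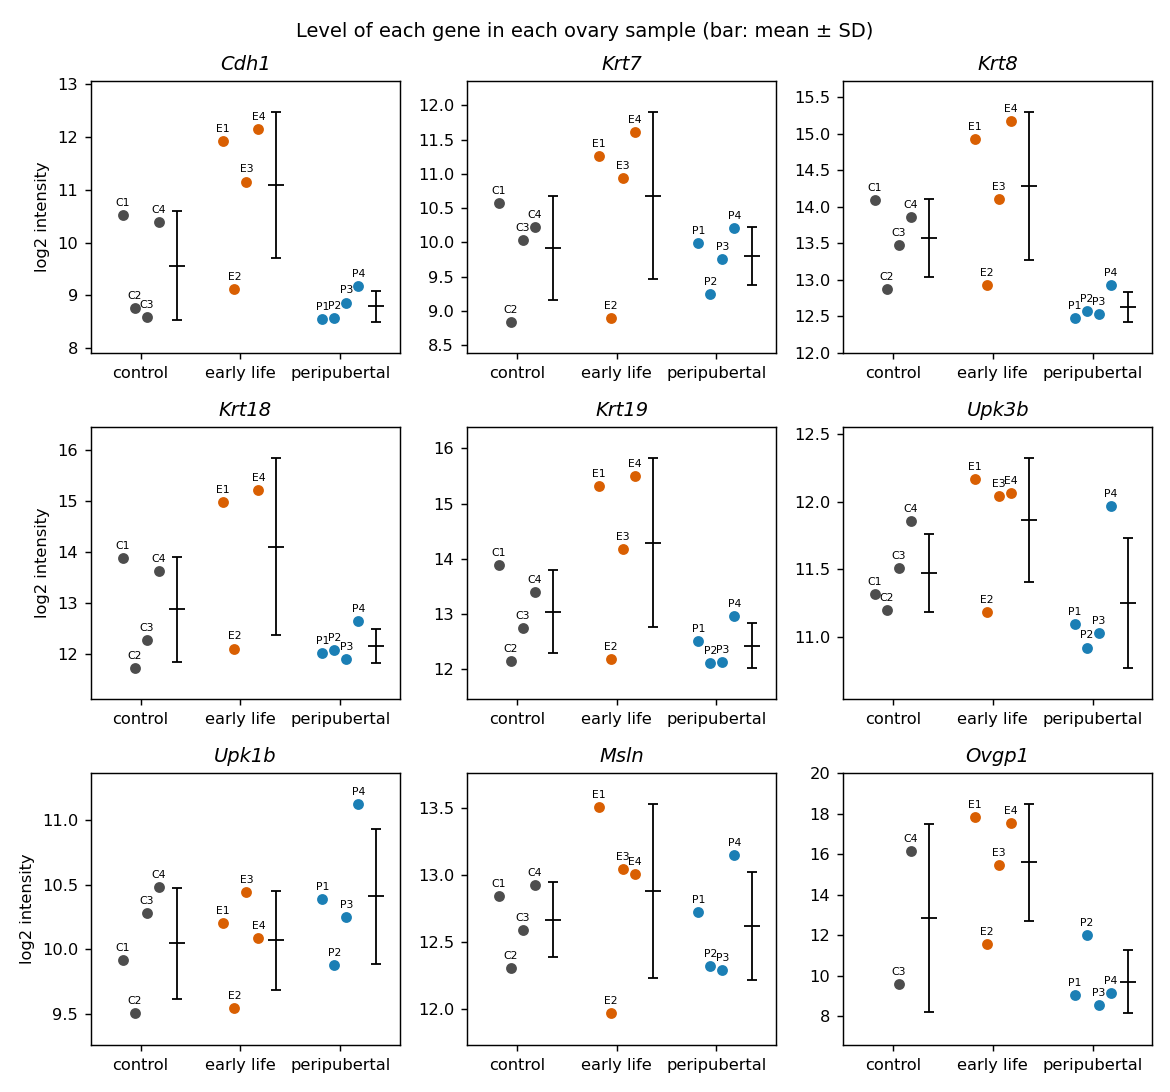
The log2 intensity (vertical axis) of each member and of Ovgp1 is plotted by diet group (horizontal axis), 1 point per sample, with the group mean and SD as a bar beside the points. E1, E3 and E4 stand above the other samples for Cdh1, while the groups overlap for Upk3b, Upk1b and Msln.

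Ovgp1 itself ranged from 8.56 in P3 to 17.82 in E1. It was at 9.57 in C3 and 16.14 in C4, at 11.59 in E2, 15.45 in E3 and 17.53 in E4, and at 9.07, 11.999 and 9.16 in P1, P2 and P4. The spots of C1 and C2 were outlier spots, with values of 16.63 and 12.14, and these samples are left out where n is 10. Keratins stayed far above background where Ovgp1 was low, as in P3, in which Krt8 was at 12.53. The widest gap between neighbouring Ovgp1 values was 3.46, which is 0.373 of their range, and the samples were treated as 1 continuous set.

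Cdh1, Krt8, Krt18 and Krt19 rose with Ovgp1 from sample to sample. Pearson's r was 0.92 for Cdh1, 0.89 for Krt8 and 0.85 for Krt19 (n = 10), and 0.91 for Krt18 (n = 9). Their permutation p-values adjusted over the 8 members were 0.00328, 0.00328, 0.00415 and 0.00415, and Spearman's rho was 0.76, 0.88, 0.71 and 0.82 (adjusted permutation p 0.0409, 0.0106, 0.0483 and 0.0409). The unadjusted values for Pearson's r were 0.00082, 0.00079, 0.00172 and 0.00208 in that order. For each 1 log2 unit of Ovgp1, Cdh1 was higher by 0.36, Krt18 by 0.32, Krt19 by 0.30 and Krt8 by 0.24 log2 units.

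Krt7 (r = 0.69, rho = 0.67) and Upk3b (r = 0.70, rho = 0.70) passed for r with an adjusted permutation p of 0.0425. For rho the adjusted permutation p was 0.0524 and 0.0483. With the outlier spots of C1 and C2 kept (n = 12), r was 0.64 and 0.60, with adjusted permutation p of 0.0429 and 0.0598. Upk3b thus did not pass for r there, while for rho the adjusted permutation p was 0.0342 for both. Msln (r = 0.56, rho = 0.52, adjusted permutation p 0.105 for r) and Upk1b (r = -0.17, rho = -0.21, adjusted permutation p 0.65 for r) did not pass. Whether r differed between members was not tested. The highest Upk1b sample, P4 at 11.12, had an Ovgp1 level of 9.16, and the highest Ovgp1 sample, E1, had a middling Upk1b level of 10.20.

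Without E1 and E4, the 2 samples farthest from the median of Ovgp1, r was 0.84 for Cdh1 and 0.77 for Krt8 (exact permutation p 0.0223 and 0.0274, n = 8). It was 0.78 for Krt18 (n = 7) and 0.68 for Krt19 (n = 8), with exact permutation p of 0.0712 and 0.0609. It was 0.34 for Krt7 and 0.50 for Upk3b (exact permutation p 0.413 and 0.213), 0.28 for Msln and -0.08 for Upk1b. Leaving out the extremes narrows the range of Ovgp1, and Krt18, Krt19, Krt7 and Upk3b were then not under 0.05. With group means removed, r was 0.85 for Cdh1, 0.74 for Krt8, 0.84 for Krt18, 0.72 for Krt19, 0.57 for Krt7, 0.48 for Upk3b, 0.58 for Msln and 0.20 for Upk1b. On the slide of control and early-life arrays (n = 6) it was 0.96 for Cdh1, 0.84 for Krt8, 0.87 for Krt19, 0.78 for Krt7, 0.87 for Upk3b, 0.78 for Msln and 0.33 for Upk1b. With outlier spots kept, it was 0.69 for Upk3b on that slide (n = 8). The other slide held too few samples. Removing group means uses which samples form a group. Exchanging the names of control and early life changes none of these values. Cdh1, Krt8, Krt18 and Krt19 passed whichever single sample was left out.

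**Figure D2:**
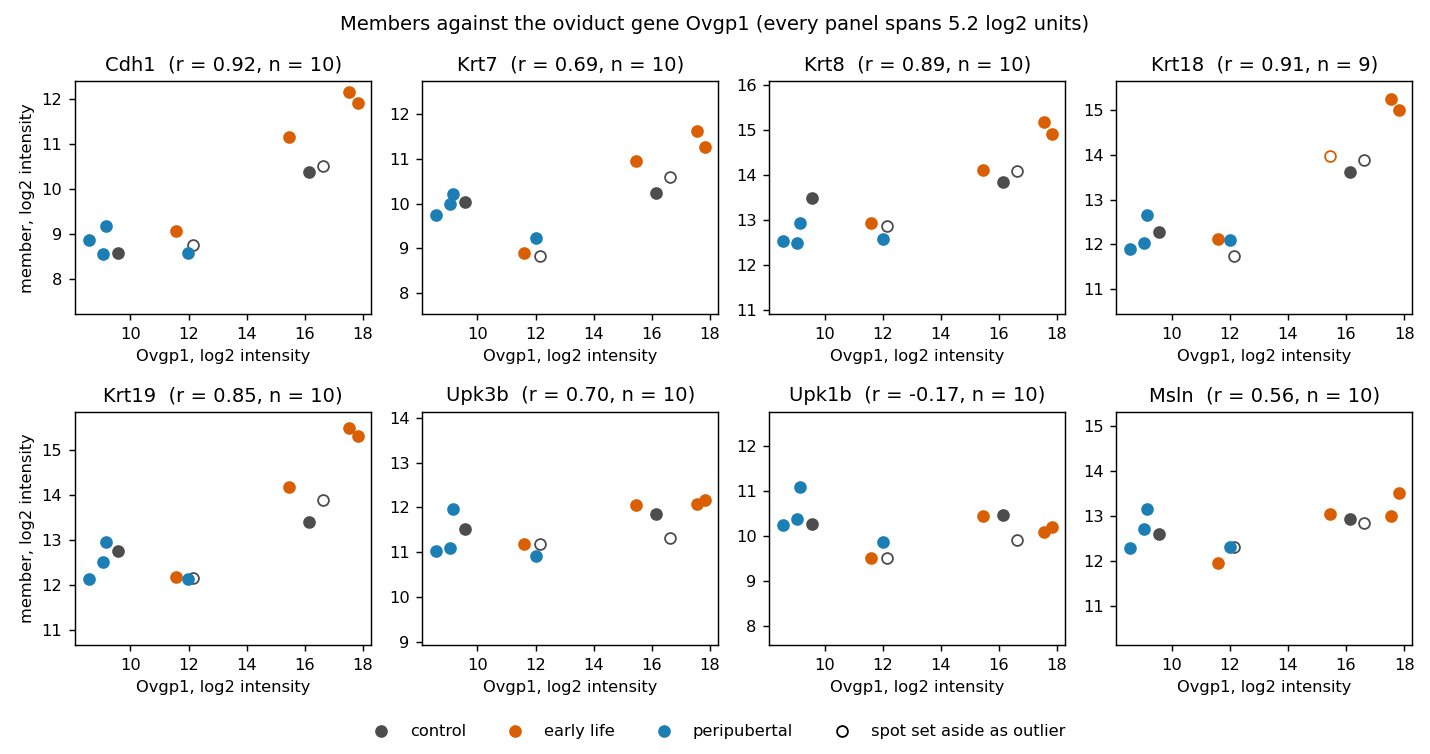
Each panel plots the log2 intensity of 1 member (vertical axis) against that of Ovgp1 (horizontal axis), 1 point per sample, coloured by diet group, with open points where a spot was set aside as an outlier and not used for r. Cdh1, Krt8, Krt18 and Krt19 climb to the right (r from 0.85 to 0.92) and Upk1b does not (r = -0.17).

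The 2 samples of an array share the slide, the hybridization and the diet, so their difference is free of these, though not of the dye. On the array of C1 and C2, Cdh1 was 3.38-fold and Krt18 4.42-fold higher in C1, where Ovgp1 (outlier spots kept) was higher by 4.49 log2 units. On that of C3 and C4, Cdh1 was 3.51-fold lower in C3, where Ovgp1 was 95.1-fold lower. On that of E1 and E2, Krt19 was 8.86-fold, Cdh1 6.97-fold and Upk1b 1.57-fold higher in E1, where Ovgp1 was 75.2-fold higher.

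Cdh1, Krt8 and Krt18 differed in the direction of Ovgp1 on 6 of 6 arrays, Krt7, Krt19 and Upk3b on 5, and Upk1b and Msln on 4. On the array of P1 and P2, though, Ovgp1 differed by -2.93 while Cdh1, Krt8 and Krt18 differed by -0.022, -0.096 and -0.065 log2 units. Differences that small say little of a direction. Over the 6 arrays, r between the differences was 0.96 for Cdh1, with an exact permutation p of 0.00556 (adjusted 0.0444). It was 0.92 for Krt18, 0.85 for Krt8, 0.83 for Krt19 and 0.81 for Krt7 (exact, adjusted p 0.0556, 0.0889, 0.104 and 0.104). For Msln, Upk3b and Upk1b it was 0.70, 0.60 and 0.44 (exact, adjusted p 0.15, 0.233 and 0.375). Outlier spots were kept in these values.

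**Figure D3:**
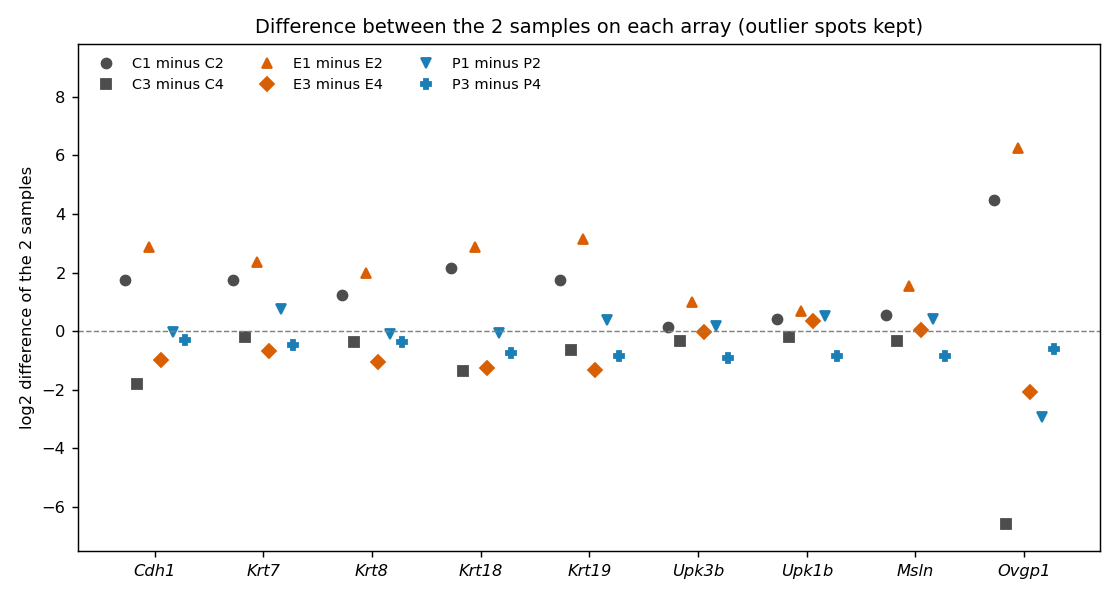
The log2 difference between the Cy3 and the Cy5 sample of each array (vertical axis) is plotted for each member and Ovgp1 (horizontal axis), 1 symbol per array, with outlier spots kept. Cdh1 has the sign of Ovgp1 on 6 of 6 arrays, though on that of P1 and P2 it differs by -0.022 only, against -2.93 for Ovgp1. On the array of P3 and P4 all 8 members are lower in P3.

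Among themselves, Cdh1, Krt8, Krt18 and Krt19 formed the tightest group, with r from 0.95 to 0.98 over their 6 pairs. Krt8 and Krt18, which pair in the filament, had r = 0.96 (n = 11). Krt7 had r from 0.85 to 0.93 with these 4 genes and from 0.46 to 0.86 with Upk3b, Upk1b and Msln. Among Upk3b, Upk1b and Msln, r was 0.52 to 0.85. Of all 28 pairs, 22 passed at a permutation p adjusted over the pairs.

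The genes nearest to each member over the samples differed between the members, as a description over 11298 genes without missing values (12 samples, 11 for Krt18). Nearest to Cdh1 were Spint1, a protease inhibitor of epithelia (r = 0.99), Cldn3, a tight junction claudin (0.99), and Dusp14 (0.99). Nearest to Krt19 were Krt42 (0.99), St14, the epithelial protease matriptase (0.99), and Sytl1 (0.98). Among the nearest to Krt18 were Sytl1 (0.99) and St14 (0.99), and Krt8 had Mab21l4, Dyrk3 and Rftn1 (each 0.98). Upk3b had Cldn15, a claudin that mesothelium makes (0.97), Emx2, a transcription factor of the urogenital tract (0.93), and Evpl, a desmosomal plakin (0.93).

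For Upk1b the nearest were Stk26 (0.96), Sp5 (0.95) and Klk1b5 (0.92), for Msln they were Cttnbp2 (0.90), Prr15l (0.89) and Ccdc66 (0.88), and for Krt7 they were Prr15l, Krt81 and Tbc1d2 (0.96, 0.96 and 0.95). Ovgp1 ranked 557 of 15342 genes by r with Cdh1 (n = 10), so 3.62% of genes followed Cdh1 at least as closely. The share was 4.42% for Krt18 (n = 9), 4.46% for Krt8, 5.69% for Krt19, 6.01% for Upk3b, 7.75% for Msln and 8.31% for Krt7. For Upk1b it was 78.1%, with Ovgp1 at rank 11987.

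No member passed in any of the 3 comparisons of diet groups. In early life versus peripubertal, 2.71% of all genes were called by limma at adjusted p under 0.05, and 0 of 8 members. In peripubertal versus control 0.286% were called, and in early life versus control 0.0377%, with 0 members in each. At an unadjusted p under 0.05 the shares of all genes were 23.9%, 11.4% and 13.9%, with 2, 0 and 0 members. By the scanner files' names, mean levels ran early life, control, peripubertal from high to low for 7 members, and peripubertal, early life, control for Upk1b, with no neighbours called different. With the names exchanged, early life and control trade places in these orders.

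Between early life and peripubertal, Cdh1 differed by 2.30 ± 0.86 (log2 ± SE; 95% interval 0.38 to 4.22; limma adjusted p = 0.152) and Krt8 by 1.66 ± 0.57 (0.38 to 2.93; adjusted p = 0.131). Krt18 differed by 2.12 ± 1.01 and Krt19 by 1.87 ± 0.86, with intervals from -0.15 to 4.39 and from -0.04 to 3.77. Krt7 (0.88 ± 0.66), Upk3b (0.61 ± 0.35), Msln (0.26 ± 0.40) and Upk1b (-0.34 ± 0.35) differed less. Over the 8 members the median difference was 1.27 against -0.03 over all genes, and 7 members were above 0 against 45.1% of all genes. With the names exchanged, this comparison gave 0.77 for Cdh1, 0.95 for Krt8, 0.71 for Krt18 and 0.62 for Krt19, with limma adjusted p of at least 0.566. One sample decided the calls: without E2, Cdh1 (3.02), Krt8 (2.15), Krt18 (2.94) and Krt19 (2.62) passed with limma adjusted p of 0.0317, 0.0267, 0.0489 and 0.0355, and so did Ovgp1 (7.87, adjusted p = 0.0294). Calls over all genes also rose without E2, from 503 to 1579 of 18557.

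Between early life and control, as the scanner files name them, Cdh1 differed by 1.53 ± 0.86, Krt18 by 1.41 ± 1.01, Krt19 by 1.25 ± 0.86 and Krt7 by 0.76 ± 0.66. Krt8 differed by 0.71 ± 0.57, Upk3b by 0.39 ± 0.35, Msln by 0.21 ± 0.40 and Upk1b by 0.02 ± 0.35. The limma adjusted p-values lay between 0.444 and 0.98, and with the names exchanged each of these differences has the opposite sign. In the value table's own values Msln did not turn (0.014). The median over the members was 0.73 against -0.02 over all genes.

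Between peripubertal and control, Krt8 differed by -0.95 ± 0.57, Cdh1 by -0.77 ± 0.86, Krt18 by -0.71 ± 0.93 and Krt19 by -0.62 ± 0.86. Upk3b differed by -0.22 ± 0.35, Krt7 by -0.12 ± 0.66, Msln by -0.05 ± 0.40 and Upk1b by 0.36 ± 0.35. The median over the members was -0.42 against 0.01 over all genes, and all limma adjusted p-values were at least 0.566. With the names exchanged, Cdh1 differed by -2.30, Krt18 by -2.12, Krt19 by -1.87 and Krt8 by -1.66, with a lowest limma adjusted p of 0.131 and 2 members at an unadjusted p under 0.05. This comparison and the others share groups, and it also compares the slides.

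**Figure D4:**
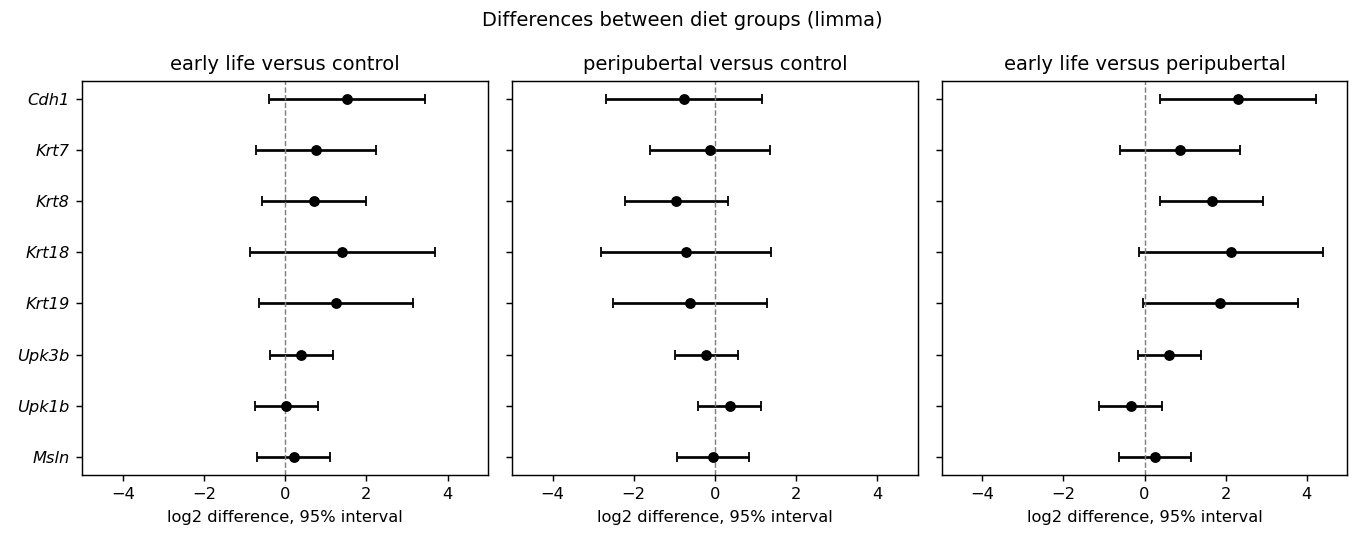
Points are log2 differences (horizontal axis) of the 8 members (vertical axis) in each comparison from limma, and bars are 95% intervals. In early life versus peripubertal, the intervals of Cdh1 and Krt8 lie above 0 before adjustment, and no member passed after it.

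A second Krt8 probe, the one shown above, had values in 10 samples, without E3 and E4, so that its early-life values are those of E1 and E2. It differed by 1.47 between early life and peripubertal, 1.25 between early life and control and -0.22 between peripubertal and control, against 1.66, 0.71 and -0.95 for the brighter probe. The signs were the same for both probes. With the mean of the probes that had a value, Krt8 differed by 2.25, 1.67 and -0.58, with limma adjusted p of 0.103 or more. In E3 and E4 that mean holds the brighter probe alone, which raises both differences of early life. They therefore say nothing on the choice of probe.

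With the Ovgp1 level of each sample in the model (outlier spots of C1 and C2 kept), the differences between early life and peripubertal were smaller for the keratins and Cdh1. Cdh1 went from 2.30 to 0.32 ± 0.47, Krt18 from 2.12 to 0.12 ± 0.60, Krt19 from 1.87 to 0.15 ± 0.70 and Krt8 from 1.66 to 0.50 ± 0.47. Upk1b went from -0.34 to -0.56 ± 0.45. Smaller differences were not particular to the members, since genes called by limma in this comparison fell from 503 to 5 with Ovgp1 in the model. Ovgp1 itself differed between these groups, so the model does not measure a part of oviduct lining. Whether a member's change differed from that of Ovgp1 could not be shown: in early life versus peripubertal, Ovgp1 differed by 5.90, and the exact permutation p of its difference from each member was 0.0571 or 0.0857 (adjusted 0.0653 to 0.0857, with 0.0286 the smallest p possible). In the comparisons with control, Ovgp1 had 2 control values and the smallest p possible was 0.0667, or 0.1 for Krt18 in early life versus control. With outlier spots kept, the lowest adjusted exact permutation p was 0.771 in early life versus control and 0.0914 in peripubertal versus control.

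**Figure D5:**
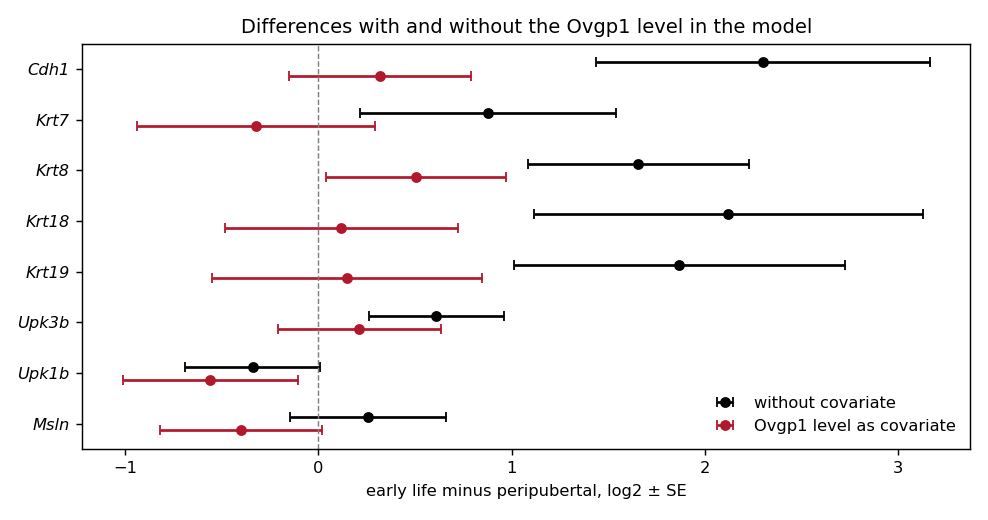
Log2 differences between early life and peripubertal with SE (horizontal axis) are plotted for each member (vertical axis), without and with the Ovgp1 level in the limma model. Cdh1 goes from 2.30 to 0.32, while Upk1b stays below 0 in both. Over all genes, calls fell from 503 to 5 with the Ovgp1 level in the model.

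Most genes of columnar epithelium differed with the same sign as the keratins, although no gene of the list passed. Of 22 such genes 18 were tested, with a median difference of 1.54 between early life and peripubertal (17 above 0). The smallest p was that of Elf3, an epithelial transcription factor (2.74 ± 0.65, limma adjusted p = 0.053), followed by Ehf, its relative (1.54 ± 0.39, adjusted p = 0.0644), and Cldn7, a claudin (3.13 ± 0.98, adjusted p = 0.103). Epcam, an adhesion molecule of epithelia, differed by 0.98 ± 0.64. By the scanner files' names, the list's median was 1.13 in early life versus control and -0.47 in peripubertal versus control. With the names exchanged, the first has the opposite sign, and the second takes the size of 1.54 and stays below 0. Cldn4, Cldn6 and Ovol1 were among those too dim to be tested.

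Differences of oviduct genes had the same sign. Wfdc2, a secreted protein abundant in oviduct lining, was the 1 gene of any list that passed, higher in early life than in peripubertal ovaries by 4.50 ± 1.01 (limma adjusted p = 0.0476). With the names exchanged, this is a difference between control and peripubertal, and early life differs from peripubertal by the size of Wfdc2 in peripubertal versus control here (-1.38). Pax8, a transcription factor of the secretory cells, differed by 2.82 ± 0.93 (adjusted p = 0.117) and Foxj1, the regulator of motile cilia, by 4.41 ± 1.54 (adjusted p = 0.133). All 5 secretory cell genes tested of 6, and all 13 ciliated cell genes tested of 14, were above 0. Mean deviations of a list from its average used genes with values in every sample, 4 secretory genes (without Ovgp1) and 11 ciliated genes. For the secretory list the mean deviation ran from -1.09 to 0.33 in control, -0.42 to 2.44 in early life and -1.15 to -0.83 in peripubertal samples. For the ciliated list it ran from -1.35 to 1.17, -0.77 to 2.48 and -1.49 to -0.32. Muc1 was too dim to be tested. The part of oviduct lining in the members' differences was not tested. The model with Ovgp1 cannot measure it, since Ovgp1 itself differed by 5.90 between early life and peripubertal.

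Surface epithelium and mesothelium genes other than the members had median differences of smaller size. In peripubertal versus control, by the scanner files' names, the sign of their median was opposite to that of the members. There 11 of 14 were above 0, against 1 of 8 members and 51.6% of all genes. With the names exchanged, that comparison takes the early life versus peripubertal medians with the sign turned. These are 0.06 for this list and 1.27 for the members before the turn, so both signs are then the same. All 14 were tested, and the medians were 0.06 in early life versus peripubertal, 0.30 in early life versus control and 0.30 in peripubertal versus control, with none called. Muc16, a mucin of mesothelium, differed by 0.34 ± 0.39 between early life and peripubertal, and Lrrn4, a mesothelial membrane protein, by 0.03 ± 0.44. Lgr5, a stem cell receptor of the surface layer, differed by -0.05 ± 0.56, Wt1, a transcription factor of mesothelium and granulosa cells, by 0.35 ± 0.23, and Lhx9, a factor of the gonad surface, by -0.56 ± 0.24. Aldh1a1, a retinoic acid enzyme, differed by -0.94 ± 0.30 (limma adjusted p = 0.108).

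Other uroplakins were not alike. Upk1a, the partner of Upk2 in bladder, stood at 7.77, 7.79, 7.49 and 7.68 in P1 to P4, and at 12.84, 8.54, 11.78 and 13.58 in E1 to E4. In C1 to C4 it stood at 10.85, 8.38, 7.66 and 10.27, and its 5 highest samples came in the same order as those of Cdh1 (E4, E1, E3, C1 and C4). Early-life and peripubertal samples did not overlap, which was also so (early life higher) for 6.54% of genes. With the names exchanged, the groups so compared overlap, since C3 lies within the peripubertal range. Its difference between these groups was 4.00 ± 1.32 (limma adjusted p = 0.117). Upk3a differed by 0.58 ± 0.22 and Upk3bl by 0.15 ± 0.22, and Upk2 was not above background in any sample.

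Of 18 other keratins 10 were tested, with a median of 0.11 between early life and peripubertal and none called. Krt16 differed by -0.48 ± 0.12 (limma adjusted p = 0.0586), Krt5, a keratin of stratified epithelia, by -0.30 ± 0.11, and Krt13 by 1.28 ± 0.47. Among 11 cadherin and desmosome partners the median was 0.03, with Dsg2 at 0.66 ± 0.19, Dsc2 at 1.02 ± 0.32 and Jup at 0.37 ± 0.15. Cdh2, the cadherin of granulosa cells, differed by 0.06 ± 0.23 and Vim, vimentin, by -0.28 ± 0.21. The 6 mesenchymal transition factors, which repress Cdh1, had a median of -0.32, with Zeb2 at -0.41 ± 0.12 (adjusted p = 0.0867), Zeb1 at -0.38 ± 0.14 and Snai1 at -0.32 ± 0.19.

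Lists of other ovary cells gave medians nearer to 0 in early life versus peripubertal: 0.06 for granulosa cells and 0.19 for oocytes, with none called. The luteal list had a median of -0.79, with Akr1c18, an enzyme that breaks down progesterone, at -4.10 ± 1.17 (limma adjusted p = 0.104). Fat cell genes had a median of 1.38 in this comparison and 2.24 in early life versus control, with Cfd at 2.96 ± 1.17 in the latter. With the names exchanged, the values of early life versus control have the opposite sign. The mean deviation of the fat list (5 genes with values in every sample) ran from -2.33 to -0.22 in control, 0.23 to 2.76 in early life and -1.51 to 1.00 in peripubertal samples. The part of fat in the members' values was not tested.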

How the data were processed

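Ovary RNA of 12 mice was measured on 6 two-colour arrays. Per the file headers, the scanner software was version 11.0.1.1 of Agilent Feature Extraction, and probes are placed on mm9. The deposited scanner files hold spot and background intensity without normalization. The deposited value table holds log2 values whose making is not given in the sources used here, and it served as an alternative only.

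Background was corrected by normexp (offset 50), followed by loess within and Aquantile between arrays, in R 4.3.3 with limma 3.58.1 and statmod 1.5.0. Outlier spots were left out (3.22% of values). Of 39429 distinct probes, 23789 passed the filter, which asks for 4 or more samples well above background and 2 or more values a group. The brightest probe stood for each of 18557 genes. A limma model held group and dye, with the array as random block (correlation 0.288) and Benjamini-Hochberg adjustment over all genes. The fit was tested on simulated data. Relations between genes were tested by permutation (100000 resamples, or exact) in Python 3.11.15, two-sided. These tests treat the samples as exchangeable, although pairs of samples share an array.

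The members and lists were chosen with earlier results of these data known. Named genes are the members, Ovgp1, a fixed set of epithelial and stromal genes, up to 3 genes of a list with the smallest p, and the 3 genes nearest to each member by Pearson's r. Some genes that these rules name are not reported here. Alternatives covered background, normalization, outliers, filter, probe choice, blocks, dye, variance prior, the Ovgp1 level, the slide, the naming of arrays, the value table and leaving out each sample. Keeping outlier spots in the relations with Ovgp1, using Wfdc2 in place of Ovgp1 and leaving out the array of E1 and E2 were added after seeing the data.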

Additional observations from a re-analysis of the deposited data

Results flagged for a closer look

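Upk3b stood apart in 2 samples. In E2 it was at 11.18, the lowest of its group, with the next sample at 12.04. In P4 it was at 11.97, the highest of its group, with the next sample at 11.09. In both cases the gap to the nearest sample took up most of the group's range. Such a gap was looked for in 25 groups of 4 samples, and chance alone gives about 1 in 20.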

How the results depend on the processing

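The number of members called was 0 under every alternative in early life versus control and in peripubertal versus control. In early life versus peripubertal it was 1 with no array block (Krt8, limma adjusted p = 0.0403) and 0 to 4 when single samples were left out, with 4 without E2. The number of members that varied with Ovgp1 was 4 to 7 when single samples were left out. With Wfdc2 in place of Ovgp1, 8 members changed differently from it in early life versus control and 8 in early life versus peripubertal, each at the smallest exact permutation p possible, 0.0286. Wfdc2 was picked after seeing the data and has larger differences than any member, so this count was close to fixed by the choice.

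With the Ovgp1 level in the model, differences changed sign in early life versus control for Upk1b (-0.049) and Msln (-0.0068). They did so in peripubertal versus control for Cdh1 (0.55), Krt7 (0.68), Krt18 (0.58), Krt19 (0.53), Upk3b (0.048) and Msln (0.39), and in early life versus peripubertal for Krt7 (-0.32) and Msln (-0.40). With control and early-life arrays exchanged, early life versus control was -1.53 for Cdh1, -0.76 for Krt7, -0.71 for Krt8, -1.41 for Krt18, -1.25 for Krt19, -0.39 for Upk3b, -0.024 for Upk1b, -0.21 for Msln and -2.74 for Ovgp1. In the deposited value table it was -1.55 for Cdh1, -0.70 for Krt7, -0.57 for Krt8, -1.02 for Krt18, -1.10 for Krt19, -0.44 for Upk3b, -0.0015 for Upk1b and -1.84 for Ovgp1, while Msln kept its sign (0.014).

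When single samples were left out, early life versus control ranged from -0.12 to 0.19 for Upk1b, -0.075 to 0.55 for Msln and -0.62 to 6.11 for Ovgp1. Peripubertal versus control ranged from -0.43 to 0.11 for Krt7, -0.31 to 0.17 for Msln and -6.52 to 0.20 for Ovgp1. Early life versus peripubertal ranged from -0.030 to 0.60 for Msln. Without a change of sign, early life versus control ranged from 1.03 to 2.25 for Cdh1, 0.67 to 2.23 for Krt18, 0.70 to 2.01 for Krt19, 0.33 to 1.31 for Krt7, 0.33 to 1.20 for Krt8 and 0.19 to 0.67 for Upk3b. Peripubertal versus control ranged from -1.25 to -0.34 for Cdh1, -1.13 to -0.30 for Krt18, -0.93 to -0.33 for Krt19, -0.49 to -0.08 for Upk3b and 0.07 to 0.53 for Upk1b. Early life versus peripubertal ranged from 0.44 to 1.43 for Krt7, 1.39 to 2.94 for Krt18 and -0.49 to -0.04 for Upk1b.

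Replicate numbers did not pair the samples (r between same-numbered samples -0.35 to 0.54, over 0.1 in 3 of 12 pairs). With the replicate block, 0 members passed in each comparison, and the lowest limma adjusted p was 0.0526 for Krt8 in early life versus peripubertal. The count of genes called in that comparison was 503, against 2090 with no array block, 768 with no dye term, 300 with the mean of all probes, 5 with the Ovgp1 level in the model and 2 (without E1) to 1579 (without E2) when single samples were left out. With the arrays exchanged it was 53. The number of arrays limits the precision, and the causes were not tested.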

Other observations

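The 4 peripubertal columns of the deposited value table matched no scanner channel (r at most 0.897). In them Krt19, Upk3b, Upk1b and Msln lay below all control and early-life columns, with differences of medians (peripubertal minus other columns) of -6.50, -5.51, -4.79 and -5.22 log2 units (Upk3b had 2 values there), whereas Cdh1, Krt7, Krt8 and Krt18 overlapped with the other columns. These columns were used in no comparison, and their source and direction stay unknown.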
